A study of Homo sapiens with 24 samples.

Results

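The ID inhibitors and their E-protein partners were followed as 7 genes, ID1, ID2, ID3, ID4, TCF3, TCF4 and TCF12, selected by symbol out of 14409 genes with an expression value in any of 3 tables of RNA-seq read counts. All 7 were listed and tested in all 3 tables. They were chosen because their levels in these same libraries were already known to differ with induction, so their own Dox against Control values are given as a description, with no test. The libraries came from Panc-1, a human pancreatic ductal carcinoma line, carrying the empty Tet-One vector, Tet-MIST1 with a rat MIST1 open reading frame and a myc tag, or Tet-PTF1a with a mouse PTF1a open reading frame and a myc tag. Each line was an individual stable clone taken through puromycin selection, so a difference between lines cannot be told apart from a difference between clones. Cells were at passage 32 (Tet-One and Tet-PTF1a) or 33 (Tet-MIST1). Each line contributed 4 libraries without drug, called Control, and 4 from cells given doxycycline (Dox) at 1 µg/ml for 72 h, which made 24 libraries. The study calls the libraries of a group biological replicates and the labels do not say how the cultures were separated, so p-values measure the spread between these libraries of a single clone.

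E proteins, encoded by TCF3 (E2A), TCF4 (E2-2) and TCF12 (HEB), are widely expressed basic helix-loop-helix (bHLH) factors. They form dimers with tissue-restricted class II bHLH factors such as PTF1a and MIST1 and bind a short DNA element, the E box, with the letters CANNTG. ID proteins have the helix-loop-helix but no basic region, so an E protein held by an ID protein does not bind DNA. In pancreatic acinar cells PTF1a acts in a complex with an E protein and an RBPJ family member, and in many tissues ID1, ID2 and ID3 are direct targets of BMP signalling through SMAD1, SMAD5 and SMAD9. The TCF4 gene described here is the bHLH factor and not TCF7L2, a WNT effector with a similar older name.

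The 4 ID promoters are shown because 3 of these genes were high together and ID4 was not. Each sequence is the 250 bases directly upstream of the RefSeq start in GRCh38.p14, written 5′ to 3′ on the strand of the gene. Capitals mark an E box, the TATA letters (TATAAA) or a CCAAT box, each searched on both strands.
ID1: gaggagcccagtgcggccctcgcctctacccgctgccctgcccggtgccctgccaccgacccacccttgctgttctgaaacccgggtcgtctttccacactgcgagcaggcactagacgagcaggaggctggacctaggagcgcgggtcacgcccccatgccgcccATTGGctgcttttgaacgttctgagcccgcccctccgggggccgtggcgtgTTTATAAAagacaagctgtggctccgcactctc
ID2: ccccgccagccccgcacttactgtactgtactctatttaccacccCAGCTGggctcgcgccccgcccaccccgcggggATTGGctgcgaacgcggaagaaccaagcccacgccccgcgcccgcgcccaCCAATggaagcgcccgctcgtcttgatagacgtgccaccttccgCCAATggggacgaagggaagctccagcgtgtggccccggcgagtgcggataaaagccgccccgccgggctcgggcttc
ID3: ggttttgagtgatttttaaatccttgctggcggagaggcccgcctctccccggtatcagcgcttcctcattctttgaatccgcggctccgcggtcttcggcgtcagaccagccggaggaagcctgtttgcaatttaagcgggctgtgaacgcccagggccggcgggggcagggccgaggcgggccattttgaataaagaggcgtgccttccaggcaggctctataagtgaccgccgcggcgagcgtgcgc
ID4: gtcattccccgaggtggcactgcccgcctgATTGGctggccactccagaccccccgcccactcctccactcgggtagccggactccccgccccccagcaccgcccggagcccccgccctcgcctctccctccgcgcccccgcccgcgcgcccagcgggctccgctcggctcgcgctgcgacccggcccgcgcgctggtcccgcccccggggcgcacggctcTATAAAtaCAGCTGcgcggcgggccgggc
The windows lie at chr20:31605039-31605288 on the plus strand for ID1, chr2:8681806-8682055 on the plus strand for ID2, chr1:23559502-23559751 on the minus strand for ID3 and chr6:19837120-19837369 on the plus strand for ID4, all in GRCh38.p14. Guanine and cytosine made up 66.0% of the ID1 window, 69.2% of ID2, 62.0% of ID3 and 78.8% of ID4. An E box was found in the ID2 window, at position -205 from the start, and in the ID4 window, at -21. Both were CAGCTG. The ID1 and ID3 windows held none. Across all 35114 RefSeq promoter windows of this length, 61.8% held a CANNTG and 14.0% held a CAGCTG form. The TATA letters were found in ID1, in overlapping copies on opposite strands at -33 and -31, and in ID4 at -29, against 10.7% of all windows. CCAAT was found in ID1 (-84), ID2 (-172, -122 and -78) and ID4 (-220), against 32.0% of all windows, and not in ID3. The BMP-responsive SMAD letters GGCGCC and the RBPJ-type letters TGGGAAA were in none of the 4 windows, against 16.4% and 6.88% of all windows. Within these 250 bases the presence of an E box did not separate ID1, ID2 and ID3 from ID4. Sequence outside the windows was not searched, and the part of any of these elements in the ID levels was not tested. RefSeq lists 1 promoter for TCF3, 10 for TCF4 and 5 for TCF12, and the counts were summed per gene, so starts of TCF4 and TCF12 could not be compared.

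In the hg19 coordinates of the tables, ID1 (chromosome 20, 30193086 to 30194317), ID2 (chromosome 2, 8822113 to 8824583), ID3 (chromosome 1, 23884421 to 23886285) and ID4 (chromosome 6, 19837601 to 19842431) are compact genes. TCF3 (chromosome 19, 1609289 to 1652328), TCF4 (chromosome 18, 52889562 to 53303224) and TCF12 (chromosome 15, 57210833 to 57580730) span long introns. LNC-LBCS lies on the opposite strand across ID4, and TCF4-AS1 and TCF4-AS2 across TCF4. Whether counting used strand is not given in the sources used here, so reads of such pairs cannot be told apart.

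The summed counts per library ranged from 35863825 to 41648040 in Tet-One, from 33402628 to 42510942 in Tet-MIST1 and from 17210989 to 43018494 in Tet-PTF1a. All 8 ductal carcinoma markers were listed in every table, whereas 1 of 9 acinar markers was listed in Tet-One and Tet-MIST1 and 2 of 9 in Tet-PTF1a. None of 4 endothelial or 4 endocrine markers was listed, and among leukocyte markers CD68 and CD14 were listed while PTPRC and CD3E were not. The summed ductal markers ranged from 3480 to 3652 CPM (counts scaled by the authors) in Tet-PTF1a Control and from 1772 to 1826 in Dox. This sum does not stand for every marker, since CDH1, on the same list, had a mean of 14.0 CPM in Control and 24.6 in Dox. The summed acinar markers ranged from 0.546 to 0.849 CPM in Control and from 3.27 to 4.33 in Dox, and CD68 with CD14 from 63.6 to 69.6 and from 31.0 to 35.8. The part of these markers in the members' values was not tested, and in bulk RNA fewer cells of a type and less RNA per cell cannot be told apart. The human PTF1A locus, to which reads of the mouse transgene can align, had 0 to 2 counts in the Tet-PTF1a Control libraries and 53 to 168 in the Dox libraries.

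ID1, ID2 and ID3 were each several times higher in all 4 Dox libraries of Tet-PTF1a than in any of its Control libraries. ID1, an inhibitor known for keeping progenitor cells from differentiating, measured 83.4, 91.5, 99.1 and 100.5 CPM in Control libraries 1 to 4 and 439.8, 427.6, 437.7 and 425.0 CPM in Dox libraries 1 to 4. The groups did not overlap, and the Dox libraries lay closer to each other than the Control libraries did in proportion to their level. The mean went from 93.6 ± 7.87 to 432.5 ± 7.30 CPM (SD, n = 4), a 4.63-fold difference with a log2 fold change of 2.21 (SE 0.0595).

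ID2, a partner of E proteins that also binds retinoblastoma family proteins, started lower, at 4.95, 6.55, 5.71 and 5.90 CPM in the Control libraries. It measured 39.1, 34.6, 36.8 and 33.9 CPM in the Dox libraries. Its 115 to 225 counts per Control library became 681 to 1112 counts with Dox. The means were 5.78 ± 0.66 and 36.1 ± 2.37 CPM (SD, n = 4), 6.28-fold apart, with a log2 fold change of 2.65 (SE 0.0654).

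ID3, closest to ID1 in its expression pattern, measured 44.6, 52.2, 51.1 and 52.0 CPM in the Control libraries and 362.3, 370.2, 361.2 and 384.3 CPM in the Dox libraries. No library of the Control group came near the Dox group. The means were 49.98 ± 3.61 and 369.5 ± 10.7 CPM (SD, n = 4), 7.45-fold apart, with a log2 fold change of 2.90 (SE 0.0442). This was the largest log2 fold change of the 7 genes in any line. Sorted by log2 fold change among 14051 genes in Tet-PTF1a, ID3 held place 32, ID2 place 37 and ID1 place 60. For scale, the 1332 genes with an exon length of 1000 to 1600 bases, the class that holds these 3 genes, had a median log2 fold change of -0.01 and a central 95% range from -0.74 to 0.75.

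ID4, known mainly from the nervous system and the testis, stood apart from the other ID genes in level and in response. It was near the detection limit in Tet-PTF1a, with 12 to 26 counts per Control library and 13 to 23 per Dox library, at 0.68 ± 0.08 and 0.78 ± 0.08 CPM (SD, n = 4). The groups overlapped and the log2 fold change was 0.19 (SE 0.244). A difference of this size was not detectable at this depth.

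**Figure D1:**
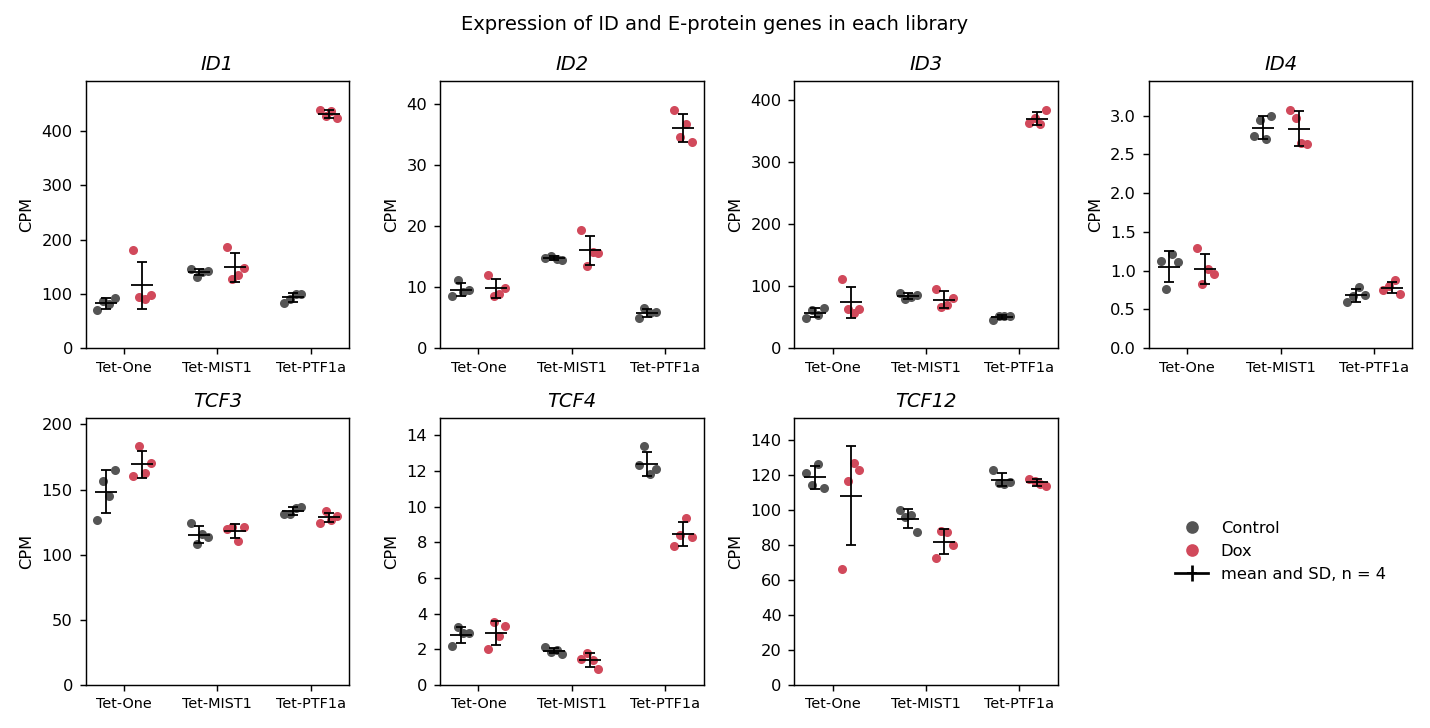
CPM (vertical axes, each starting at 0 with its own scale) of the 7 genes in each of the 24 libraries, grouped by line and coloured by treatment, with the mean and SD of 4 libraries. ID1, ID2 and ID3 stand far above their other groups in Tet-PTF1a Dox, TCF4 is highest in Tet-PTF1a Control, and in Tet-One Dox a single library is high for ID1 and ID3 and low for TCF12.

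The abundant E-protein genes, TCF3 and TCF12, overlapped between Control and Dox in Tet-PTF1a. TCF3, which encodes E12 and E47, measured 130.9, 131.2, 135.7 and 136.3 CPM in Tet-PTF1a Control and 124.5, 133.2, 126.9 and 129.7 CPM in Dox. The ranges overlapped and the log2 fold change was -0.05 (SE 0.0271). TCF12, the HEB gene, measured 122.6, 115.4, 114.9 and 116.0 CPM in Control and 117.7, 116.4, 114.6 and 113.6 CPM in Dox, again with overlap, and its log2 fold change was -0.02 (SE 0.0279), a sign that turned to 0.01 when libraries were scaled by their totals.

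TCF4 was the E-protein gene that differed without overlap. It measured 12.4, 13.4, 11.8 and 12.1 CPM in the Tet-PTF1a Control libraries and 7.81, 8.44, 9.37 and 8.28 CPM in the Dox libraries. Every Dox library lay below every Control library. The means were 12.4 ± 0.69 and 8.48 ± 0.65 CPM (SD, n = 4), with a log2 fold change of -0.54 (SE 0.0709).

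In Tet-MIST1 no ID gene separated Dox from Control libraries, and the difference in response between the lines was not tested because the genes were chosen with it known. ID1 measured 146.6, 131.9, 140.7 and 141.7 CPM in Control and 187.4, 127.0, 134.9 and 147.6 CPM in Dox, with a log2 fold change of 0.10 (SE 0.101). ID2 differed by 0.13 (SE 0.0913), ID3 by -0.10 (SE 0.101) and ID4 by 0.01 (SE 0.0932) on the log2 scale. For each of the 4 ID genes the groups overlapped, and the highest library for ID1, ID2, ID3 and ID4 was Dox 1. Without Dox 1 the log2 fold change of ID1 was -0.03, of ID2 0.02, of ID3 -0.22 and of ID4 -0.04, and ID3 then passed the threshold. Among the E proteins TCF12 measured 99.8, 95.9, 96.8 and 87.2 CPM in Control and 72.6, 87.6, 87.1 and 79.7 CPM in Dox, with a log2 fold change of -0.21 (SE 0.065). For TCF12, Dox 2 lay above the lowest Control library, so the groups overlapped. TCF4 was low, at 64 to 85 counts in Control and 31 to 70 in Dox, with a log2 fold change of -0.43 (SE 0.165) and overlapping groups. TCF3 differed by 0.04 (SE 0.0538).

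In Tet-One, which carries no factor, ID1 measured 69.4, 87.4, 81.4 and 91.6 CPM in Control and 180.1, 94.4, 90.6 and 97.2 CPM in Dox. Its log2 fold change of 0.49 (SE 0.224) rested on Dox 1, since the other 3 Dox libraries had a mean of 94.0 ± 3.31 CPM (SD, n = 3) and overlapped the Control range, and without Dox 1 the log2 fold change was 0.19. ID3 followed the same pattern, at 111.3 CPM in Dox 1 and 60.9 ± 3.43 CPM (SD, n = 3) in the other Dox libraries, and its log2 fold change went from 0.36 to 0.09 without Dox 1. TCF12 was low in that library, at 65.9 CPM against 121.8 ± 5.06 CPM (SD, n = 3), and its log2 fold change of -0.13 became 0.04 without it. ID2, ID4 and TCF4 differed by 0.04, -0.04 and 0.04 and TCF3 by 0.19 (SE 0.0945), and all 7 genes overlapped between the groups.

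The deviation of Tet-One Dox 1 from its group followed gene length. Against the mean of the remaining Dox libraries and across 10700 genes, the shortest 20% of genes, with exons of at most 1943 bases in all, had a median log2 difference of 0.62, and the longest 20%, of 5707 bases or more, had a median of -0.59. The same library differed by 0.94 for ID1, 0.87 for ID3 and 0.40 for ID2, with exons of 1232, 1239 and 1364 bases, and by 0.45 for ID4 (3876 bases). It differed by -0.65 for TCF4 (10834 bases) and by -0.88 for TCF12 (4963 bases). TCF3, of nearly the same length as TCF12 (4678 bases), differed by -0.09, so length alone did not order the members. Dox 1 of Tet-MIST1 had a smaller difference of this kind, 0.21 in the shortest and -0.22 in the longest 20% of genes, with 0.47 for ID1 and 0.43 for ID3. In the 8 Tet-PTF1a libraries these medians stayed between -0.04 and 0.04. The part of gene length in the Tet-One and Tet-MIST1 values was not tested.

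**Figure D2:**
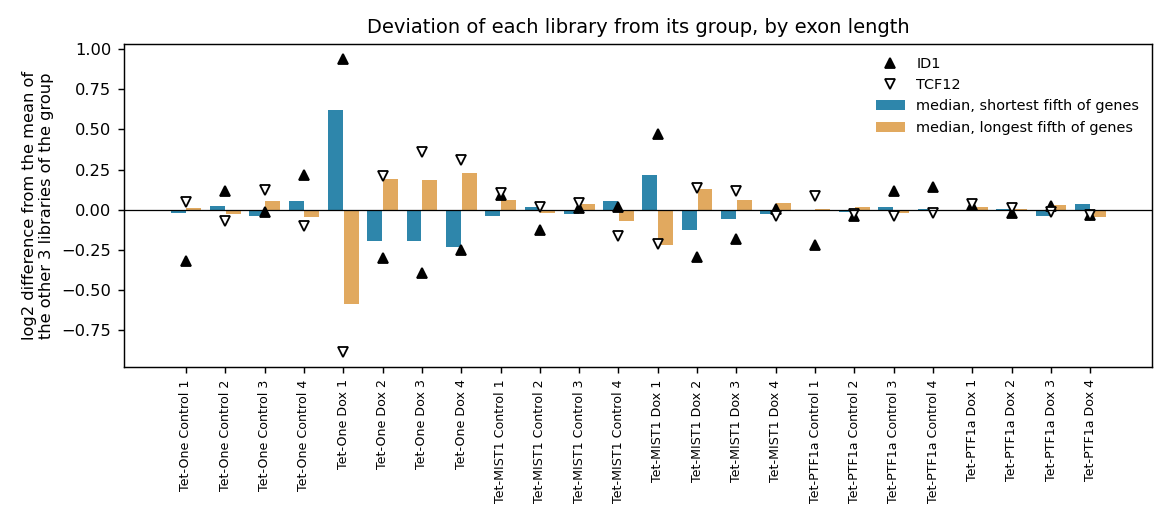
Log2 difference of each of the 24 libraries from the mean of the other 3 libraries of its group (vertical axis), as the median over the shortest and the longest 20% of genes by exon length (bars) and for ID1 and TCF12 (triangles). Tet-One Dox 1 stands out, with 0.62 and -0.59 for the bars, while the Tet-PTF1a libraries show almost no difference by length.

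With edgeR and a false discovery rate (FDR) under 0.05 over all genes tested, 0% of 13428 genes were called in Tet-One, 20.6% of 13623 in Tet-MIST1 and 48.2% of 14053 in Tet-PTF1a. In Tet-One 401 genes had an unadjusted edgeR p under 0.05, and 1636 of 13407 did without Dox 1. DESeq2 on all libraries also called 0. The 0% is thus not read as an absence of any response to Dox. Beside that background, 0, 1 and 4 of the 7 genes were past the threshold. In Tet-MIST1 it was TCF12, among the 8.77% of genes called lower. In Tet-PTF1a they were ID1, ID2 and ID3, among the 23.8% called higher, and TCF4, among the 24.4% called lower. Genes with all Dox libraries on the same side of all Control libraries made up 2.44%, 27.1% and 42.3% of the tested genes, and 0, 0 and 4 of the 7. These counts repeat the basis on which the genes were chosen. In Tet-MIST1 the member count moved between 0 and 2 as single libraries were left out, and was 0 without Control 1, 2 or 3 or Dox 3 or 4. In Tet-PTF1a it was 4 each time.

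**Figure D3:**
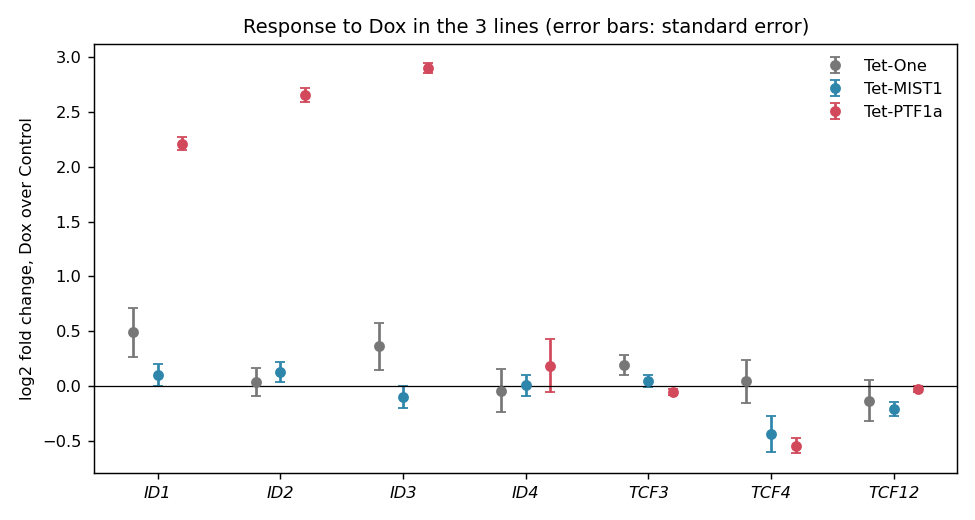
Log2 fold change of Dox over Control (vertical axis) for the 7 genes in the 3 lines, with standard errors from the edgeR fit. ID1, ID2 and ID3 reach 2.21, 2.65 and 2.90 in Tet-PTF1a, TCF4 lies at -0.54 there, and the ID genes in the other lines lie between -0.10 and 0.49.

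The clones already differed before induction. CPM was scaled by the authors, over a set of libraries that the sources used here do not name. A joint scaling of the 24 libraries moved the median of a library by at most 0.0511 on the log2 scale. TCF4 was 4.41 times as high in Tet-PTF1a Control (12.4 CPM) as in Tet-One Control (2.81 ± 0.45 CPM, SD, n = 4), or 4.21 times under the joint scaling. With Dox, TCF4 in Tet-PTF1a was still above every library of the other lines. Between these Control groups 74.0% of 13519 genes did not overlap, and 2 of the 7 did not, TCF4 and ID2. ID2 in Tet-PTF1a Control was 0.603 times its level in Tet-One Control, whereas ID1, ID3, ID4, TCF3 and TCF12 overlapped between these groups.

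Tet-MIST1 Control had higher levels of the 4 ID genes and lower levels of the 3 E-protein genes than Tet-One Control, without overlap for all 7. The clones differed widely, since 74.9% of 13520 genes did not overlap between these Control groups, so the count of 7 is not particular to these genes. ID4 was 2.70 times as high, at 2.85 ± 0.15 against 1.05 ± 0.20 CPM (SD, n = 4). ID1 was 1.70 times, ID2 1.54 times and ID3 1.46 times as high. TCF3 was at 0.777, TCF4 at 0.682 and TCF12 at 0.802 of the Tet-One level. Over the 6 groups ID1, ID2 and ID3 were highest in Tet-PTF1a Dox, whose range overlapped no other group, ID4 was highest in the Tet-MIST1 groups, which overlapped each other, and TCF4 was highest in Tet-PTF1a Control.

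Levels of different genes were compared as CPM per kb of listed exon, and summed as an ID pool (ID1 to ID4) and an E-protein pool (TCF3, TCF4 and TCF12). In Tet-PTF1a the ID pool measured 120.7 ± 9.24 in Control and 675.9 ± 3.95 CPM per kb in Dox (SD, n = 4), while the E-protein pool measured 53.3 ± 0.56 and 51.6 ± 0.78. The ID pool per unit of E-protein pool was 2.27 ± 0.18 in Control and 13.1 ± 0.25 in Dox, with ranges of 1.997 to 2.388 and 12.7 to 13.3. On the log2 scale this ratio differed by 2.54, against an SD within groups of 0.0875. These are ratios of RNA and not of protein.

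The ratio was 4.40 ± 0.17 in Tet-MIST1 Control and 4.71 ± 0.97 in Dox, and 2.15 ± 0.16 in Tet-One Control and 2.89 ± 1.49 in Dox (SD, n = 4). The log2 differences, 0.08 and 0.31, were smaller than the SDs within groups of 0.204 and 0.451. Both rested on Dox 1 and were -0.05 in Tet-MIST1 and -0.0013 in Tet-One without it. Before induction the Tet-MIST1 clone thus had the highest ratio of the 3 lines, and its Control range of 4.28 to 4.65 lay above those of Tet-One (1.98 to 2.30) and Tet-PTF1a.

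Within the ID pool of Tet-PTF1a, ID1 made up 62.9% ± 1.21 in Control and 51.9% ± 0.94 in Dox, and ID3 33.4% ± 0.93 and 44.1% ± 1.17 (SD, n = 4). ID2 held 3.51% and 3.92%, and ID4 0.146% and 0.0298%. The E-protein pool was nearly all TCF3 (53.6% and 53.3%) and TCF12 (44.3% and 45.2%). TCF4 made up 2.15% ± 0.14 of it in Control and 1.52% ± 0.12 in Dox, and less than that in every group of the other lines, so its lower level hardly moved the pool.

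**Figure D4:**
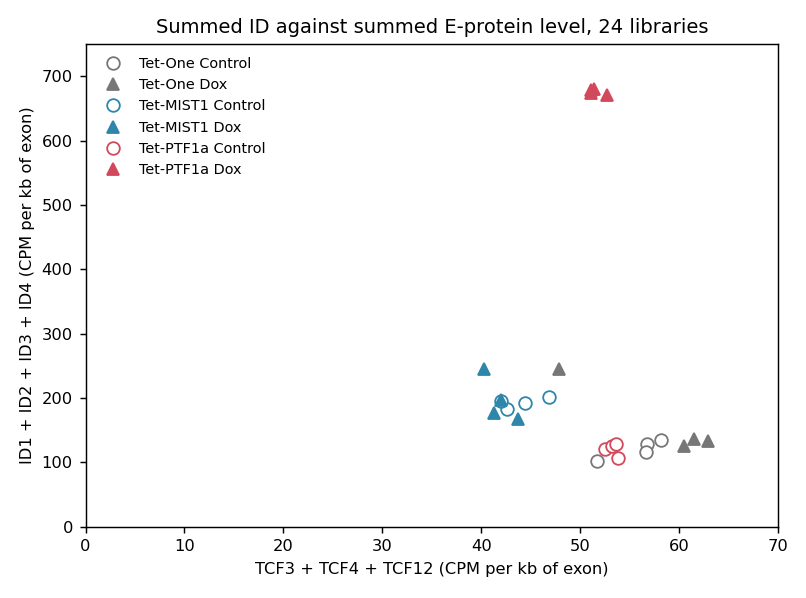
Summed ID level against summed E-protein level, both in CPM per kb of exon, for the 24 libraries (open circles Control, filled triangles Dox). The 4 Tet-PTF1a Dox libraries sit at 671 to 680 on the vertical axis, above all other libraries, at an E-protein level like that of Tet-PTF1a Control, and the isolated grey triangle is Tet-One Dox 1.

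The surrounding pathway was read from 5 lists of genes outside the 7 members, with tests by edgeR over all genes. The lists were drawn up with results of these data known, so their counts are not independent evidence. In Tet-PTF1a 34 of 71 tested genes were called higher and 18 lower, which is 73.2% against 48.2% of all genes, with a median log2 fold change of 0.12 against 0.00 over all genes tested. The 34 and the 73.2% include the PTF1A locus and BHLHA15, which could enter the test only through Dox. Scaling by library totals changed the split to 42 higher and 14 lower in the lists, and from 3344 higher and 3431 lower to 4392 and 2698 over all genes. In Tet-MIST1 6 of 64 rose and 6 fell (18.8% against 20.6%), and in Tet-One 0 of 66 passed.

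Class II bHLH factors compete with ID proteins for E proteins. Of 7 tested in Tet-PTF1a, 3 were called higher and 1 lower (57.1%, against 48.2% of all genes). ATOH8 rose from 0.76 ± 0.17 to 32.7 ± 0.35 CPM (SD, n = 4, log2 fold change 5.35, SE 0.0927, FDR 7.2e-43). The other 2 called higher, the PTF1A locus and BHLHA15, the human MIST1 locus, were above the filter of 0.5 CPM in 0 Control and 4 Dox libraries, so they could enter the test only through Dox and their calls are not read as results. BHLHA15 had 2 to 16 counts per Control library and 12 to 22 per Dox library. TWIST2, a mesenchymal factor, fell by 0.58 on the log2 scale (SE 0.135, FDR 0.00021). In Tet-MIST1 1 of 4 tested genes changed, ATOH8, which rose by 1.08 (SE 0.155, FDR 0.00065).

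The HES, HEY and BHLHE40 family holds bHLH repressors, many of them targets of Notch and RBPJ. In Tet-PTF1a 6 of 9 rose and 2 fell (88.9% called, against 48.2% of all genes). HEYL rose from 8.64 ± 0.24 to 87.6 ± 3.15 CPM (SD, n = 4, log2 fold change 3.32, SE 0.0449, FDR 6.0e-47), HEY1 by 1.72 (FDR 3.0e-25) and HES7 by 1.05 (FDR 3.6e-10). BHLHE41, a circadian repressor, fell by 1.54 (FDR 2.5e-37) and HES2 by 0.40 (FDR 5.1e-06). HES1, named after its values were seen as the best known Notch target, had a log2 fold change of 0.12 (FDR 0.011). In Tet-MIST1 2 of 9 rose, HES7 by 0.76 (FDR 0.0016) and HES6 by 0.48 (FDR 0.0045), and 2 fell, HEY1 by 0.51 (FDR 0.0065) and HES2 by 0.30 (FDR 0.0014).

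The cofactors of E proteins were called about as often as all genes in Tet-PTF1a (46.2% against 48.2%). In Tet-PTF1a 3 of 13 rose and 3 fell. CBFA2T3, a corepressor of the ETO family that binds E proteins, rose by 0.96 (SE 0.0878, FDR 1.7e-13), CBFA2T2 by 0.16 (FDR 0.00039) and RBPJ, the PTF1a complex partner, by 0.16 (FDR 3.4e-05). SSBP4 fell by 0.19 (FDR 4.6e-05), KAT2A by 0.08 (FDR 0.014) and LDB1 by 0.07 (FDR 0.039), and the LDB1 call was lost when any of 7 of the 8 libraries was left out. The coactivator EP300, named after its values were seen, had a log2 fold change of 0.05 (FDR 0.085). In Tet-MIST1 1 of 13 changed, SSBP3, which rose by 0.75 (SE 0.0562, FDR 5.5e-06).

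BMP and SMAD genes, the pathway upstream of ID transcription, changed in both directions. In Tet-PTF1a 14 of 30 rose and 11 fell (83.3% called, against 48.2% of all genes). Among the ligands BMP8A rose from 1.23 ± 0.21 to 18.7 ± 1.14 CPM (SD, n = 4, log2 fold change 3.87, SE 0.099, FDR 1.8e-35) and BMP6 fell by 0.68 (FDR 4.6e-19). SMAD1, a BMP-activated transducer, rose by 1.20 (SE 0.0406, FDR 5.1e-30). Inhibitors of the pathway went both ways. The intracellular inhibitor SMAD6 fell by 1.92 (SE 0.0879, FDR 1.1e-24) and the pseudoreceptor BAMBI by 0.86 (FDR 0.0021), and the secreted antagonist CHRD rose by 1.34 (FDR 5.2e-20).

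More genes of this pathway, named after their values were seen to fill the roles, showed the same mixture. SMAD9 rose by 0.41 (FDR 1.9e-08), and its relative SMAD5 fell by 0.17 (FDR 1.7e-06). The common partner SMAD4 had a log2 fold change of 0.02 (FDR 0.71). SMAD7 fell by 0.55 (FDR 4.4e-09), the antagonist NOG rose by 0.80 (FDR 6.9e-11), the receptor BMPR2 fell by 0.24 (FDR 9.3e-07) and BMPR1A had a log2 fold change of -0.03 (FDR 0.41). In Tet-MIST1 1 of 27 rose, the coreceptor RGMB by 0.41 (FDR 0.00022), and 4 fell, among them BMP6 by 0.42 (FDR 0.00019) and the ubiquitin ligases SMURF2 by 0.30 (FDR 0.0051) and SMURF1 by 0.29 (FDR 0.022). SMURF1 was past the threshold neither without Control 1 nor without Control 3.

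Of 12 genes reported elsewhere as targets of E proteins or ID proteins, 8 rose and 1 fell in Tet-PTF1a. The share called was 75.0%, against 48.2% of all genes. THBS1, a secreted inhibitor of vessel growth, rose from 6.21 ± 0.49 to 37.7 ± 1.96 CPM (SD, n = 4, log2 fold change 2.59, SE 0.0601, FDR 4.6e-37). The stress gene GADD45A rose by 1.31 (FDR 9.8e-25) and the chemokine receptor CXCR4 by 0.96 (FDR 6.9e-05), and IGFBP3 fell by 0.47 (FDR 0.0010). Among others, named after their values were seen, CDH1, an epithelial adhesion gene, rose by 0.82 (FDR 4.0e-18), CCND1, a driver of the cell cycle, by 0.72 (FDR 5.8e-32) and CDKN1C, a brake on it, by 0.66 (FDR 4.8e-08). The list holds genes reported as activated and as repressed by E proteins, so its count carries no single direction. In Tet-MIST1 1 of 11 changed, GADD45A, which rose by 0.28 (FDR 0.022) and was not past the threshold without Control 1, Control 3 or Dox 4.

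**Figure D5:**
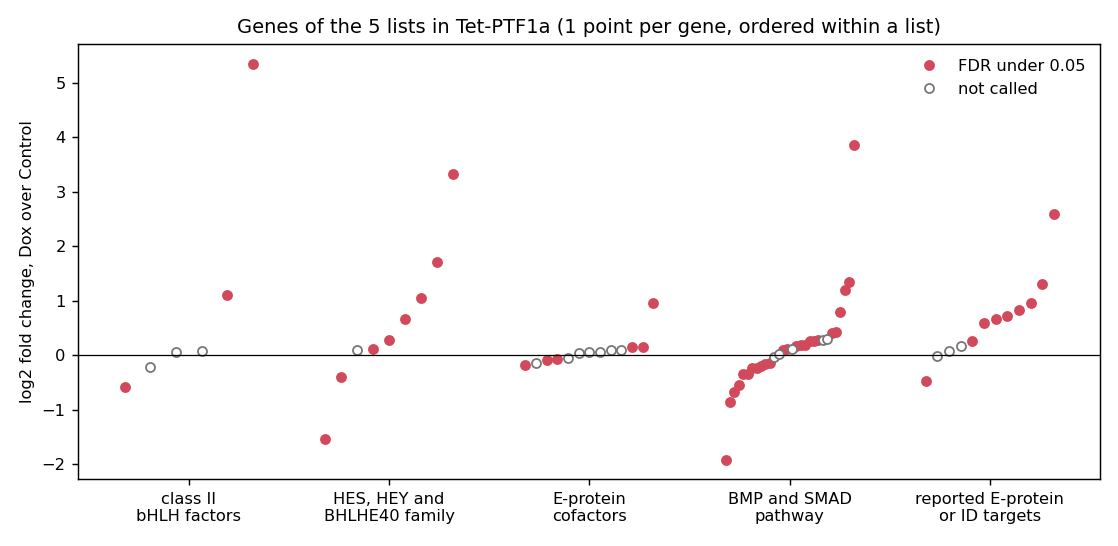
Log2 fold change of Dox over Control in Tet-PTF1a (vertical axis) for each tested gene of the 5 lists, ordered by value within a list, filled where the edgeR FDR was under 0.05. PTF1A is left out because its Control libraries held at most 2 counts. BHLHA15 is shown filled, although it could enter the test only through Dox. The highest points are ATOH8 (5.35), BMP8A (3.87) and HEYL (3.32), and among the cofactors CBFA2T3 is highest at 0.96.

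Among 12753 genes with a mean of at least 1 CPM, the pattern over all 24 libraries, with each line's mean removed, was compared by Pearson's r on log2 CPM. ID1 and ID3 were each other's closest gene (r = 0.99 over 24 libraries). Also among the closest were PFN2 (0.98) for ID1, and for ID3 TMEM51 (0.99) and PXDC1 (0.98). ID2 was closest to ID3 (0.98), IQCD (0.98) and ATOH8 (0.98). Without the 4 Tet-PTF1a Dox libraries, in the remaining 20, r was 0.95 for ID1 with ID3, 0.84 for ID1 with PFN2, 0.76 for ID3 with TMEM51 and 0.79 for ID3 with PXDC1. For ID2 it was 0.70 with ID3, 0.52 with IQCD and 0.60 with ATOH8. These 20 libraries still held Tet-One Dox 1, which was high for ID1 and ID3, and r without that library as well was not computed.

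The E proteins had other neighbours. Among the genes closest to TCF12 were GSK3B and ARHGEF12 (each r = 0.98 over 24 libraries), and both values were 0.94 without Tet-One Dox 1, in 23 libraries. TCF3 was closest to TMEM259 (0.96), FBXW5 (0.94) and POLD1 (0.93). TCF4 was closest to EFR3B (0.87), TARBP1 (0.83) and ADGRB1 (0.83). For ID4 the highest r, with BORA, PLLP and RAB18, was 0.71 in sparse counts and is not read as a likeness.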

How the data were processed

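Polyadenylated RNA of 24 libraries was sequenced. Per the labels, the submitters' processing notes name hg19, TopHat, HTSeq, DESeq and edgeR without a role, and the counting annotation and the use of strand are not given in the sources used here. The authors deposited, for each line, raw counts per gene and a score per library scaled for depth, called CPM here. The scaling was not by summed counts alone, since ID1 in Tet-One Dox 1 had 6836 of 41648040 counts and 180.1 CPM. The authors describe keeping genes above 0.5 CPM in at least 4 libraries. Within its own table, Tet-PTF1a had all 14053 listed genes past this filter. Tet-One had 13428 of 13879 past it, and Tet-MIST1 had 13623 of 13879. Columns of fold changes, p-values and FDR from the authors' own comparisons were not used. Listed exon lengths were taken as deposited.

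Counts were fitted per line with edgeR 4.0.16 in R 4.3.3 (TMM scaling, quasi-likelihood F-test, Benjamini-Hochberg FDR under 0.05 over all genes tested, genes above 0.5 CPM in at least 4 libraries, prior count 2 for log2 fold changes). SE was derived from that fit. The same fit was run on simulated libraries in which 200 genes carried a log2 fold change of 1. It recovered 100% of them in each line, with 5.66% to 6.98% false calls. Real Tet-One libraries spread more (biological coefficient of variation 14.4%) than those of the Tet-MIST1 line (6.58%) or the Tet-PTF1a line (2.8%). Whether the simulated libraries carried the Tet-One spread was not checked, so their recovery does not measure the power of the Tet-One fit. DESeq2 1.42.0, other scalings and filters, a replicate block, and leaving out each library were tried. The members and lists were chosen with earlier results of these data known. Named genes were the members, the PTF1A and BHLHA15 loci, the 3 called genes with the largest rise and the 3 with the largest fall per list and line, and the 3 genes most like each member. Some genes that this rule or a marker list holds are not reported here. Leaving out Tet-One Dox 1 or the Tet-PTF1a Dox libraries for likeness, and the joint scaling, were added after seeing the data. Promoters came from RefSeq by symbol, and all 7 genes matched. Some gene names had become dates in the tables, and these were left as they are.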

Additional observations from a re-analysis of the deposited data

Results flagged for a closer look

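In 9 of 48 groups of 4 libraries, counting the 7 genes and the log2 ratio of the ID to the E-protein pool, the highest or lowest library had a gap to its nearest neighbour above Dixon's 95% critical value, relative to the range of the group. Chance flags about 1 in 20 groups with normally distributed values. The 48 groups are not independent, because the same libraries recur in them and the ratio is built from the 7 genes. In Tet-One Dox, library 1 was the highest for ID1 (180.1 CPM) and ID3 (111.3 CPM), the lowest for TCF12 (65.9 CPM) and the highest for the log2 ratio (2.36). In Tet-PTF1a Control, library 1 was the lowest for ID3 (44.6 CPM) and the highest for TCF12 (122.6 CPM). In Tet-MIST1, Dox 3 was the lowest for TCF3 (110.6 CPM), and a Control library was the highest for the log2 ratio (2.22). In Tet-PTF1a Dox a library was the lowest for the log2 ratio (3.67).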

How the results depend on the processing

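The log2 fold changes of ID1, ID2 and ID3 in Tet-PTF1a kept their direction under the 7 other settings and with each of the 8 libraries left out, at 2.15 to 2.25, 2.56 to 2.70 and 2.83 to 2.93. TCF4 ranged from -0.58 to -0.50. Scaling by library totals moved TCF3 there to -0.02, TCF12 to 0.01, BMPR1A to 0.0094 (from -0.03, FDR 0.79) and EP300 to 0.09 (FDR 0.0031), and ended the calls of KAT2A (-0.05) and LDB1 (-0.04). DESeq2 and the likelihood ratio test also ended the LDB1 call (both -0.07). HES1 was not called without Dox 4 (0.10). The log2 difference of the pool ratio in Tet-PTF1a was 2.54, and became 2.19 as a mean of log2 levels, 2.91 without ID1 and 2.28 without ID3, with 2.48 to 2.56 as single libraries were left out. With a library left out it ranged from -0.0013 to 0.43 in Tet-One and from -0.05 to 0.17 in Tet-MIST1, and under other sums from 0.17 to 0.54 and from -0.02 to 0.24. Called genes in Tet-MIST1 numbered 2812, and from 1436 to 3770 with a library left out (1460 without Control 1, 1771 without Control 2 and 1436 without Control 3). In Tet-One there were 0, and 0 to 1 with a library left out (1 without Dox 1). Listed genes called ranged from 9 to 18 in Tet-MIST1 and from 46 to 56 in Tet-PTF1a. The cause of these changes was not tested.

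With the replicate number as a block, 1463 genes were called in Tet-MIST1, SMURF1 was at -0.30 (FDR 0.050) and TCF12 was not past the threshold. Libraries with the same number had correlations of their deviations between -0.244 and 0.18, and libraries with different numbers were not compared. Whether the numbers pair the cultures is therefore not settled, and the main fits used no block.

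ID4 had 12 to 26 counts per library in Tet-PTF1a and TCF4 31 to 133 in the other lines, which limits their precision.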
